A study of Arabis alpina with 9 samples.

Results

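The *pep1-1* mutant of *Arabis alpina*, a perennial relative of Arabidopsis, was compared with its wild type, the accession Pajares, in dissected shoot apices. The comparison sets 3 libraries of *pep1-1* against 3 of the wild type, 6 of the 9 libraries of the series. The fit over all 9 libraries covers the 21713 genes with enough reads to be tested out of 30690 in the deposited table. Both groups were plants 3 weeks old, grown in long days of 16 h light and 8 h dark, in the Pajares background. The *pep1-1* mutant was isolated after EMS mutagenesis of Pajares, which leaves other mutations in a line, and with 1 mutant allele in the data the loss of *PEP1* and other changes of this line cannot be told apart. The other 3 libraries, of the *pep2* mutant (*pep2-1*, homozygous plants picked with a marker from a segregating population), are given beside the others. They also entered the fit, and so its filter, scaling and estimate of the spread. They share the wild-type libraries as controls, so that the values of both mutants over the wild type are not independent of each other.

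*PEP1* is the *A. alpina* ortholog of *FLOWERING LOCUS C* (*FLC*), which encodes a MADS box transcription factor that represses flowering until a long cold period (vernalization) silences it. In Arabidopsis FLC binds and represses genes that promote the floral transition, among them *SOC1*, *FT*, *FD* and *SPL15*. In the perennial *A. alpina*, *PEP1* is silenced by cold and becomes active again afterwards, and mutants without it flower without vernalization and keep flowering. At 3 weeks the apices of all genotypes are described as vegetative, so the comparison asks which transcripts depend on *PEP1* before any flower is made.

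Each library held between 12871903 and 23829973 reads in genes and between 24417 and 24807 genes with at least 1 read. The table marks the replicates by the letters A, B and C, and values are given below in that order. Levels are in CPM, which are reads brought to a common library size with TMM factors. In such bulk tissue fewer cells of a type and less RNA per cell cannot be told apart. The study describes its replicates as biological, and the labels do not say more, so that the p-values measure the spread between these libraries. Replicate A stood apart from B and C in the wild type and *pep1-1*, and less so in *pep2-1*. The first principal component (49.5% of the variance) placed the wild-type libraries at -17.2, 18.5 and 18.1 and those of *pep1-1* at -3.61, 26.4 and 28.5. Those of *pep2-1* were at -36.6, -12.1 and -22.0. The evening clock gene *GIGANTEA* (AALP_AA1G248200) was at 61.7, 9.05 and 7.31 CPM in wild-type apices and 50.3, 7.29 and 14.1 in *pep1-1*, and was thus highest in replicate A of both genotypes. Meristem markers were present, with *STM* (AALP_AA2G018400), a gene that keeps meristem cells undifferentiated, at 38.1, 33.7 and 27.3 CPM in wild-type apices and 41.8, 35.5 and 28.0 in *pep1-1*. *CLV1*, *KNAT1*, *CUC2* and *CYCB1;1* also passed the filter on low reads. *AP1* and *AG*, markers of floral meristems and of stamens and carpels, had no read in any of the 6 libraries, and *PI* and *SEP3* were below 0.5 CPM in each. *AP3*, another floral marker, did have reads and passed the filter. It was at 0.948, 1.27 and 0.983 CPM in wild-type apices and 0.677, 0.433 and 0.703 in *pep1-1*. *PEP1* itself was not analysed here, so the labels could not be checked with the mutated gene.

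Few genes passed as different between the genotypes in the fit over all libraries, and the number depended on the fit. A gene was called where the adjusted p of edgeR's quasi-likelihood test was at most 0.05 and the log2 of the fold change from the wild type to *pep1-1* (log2FC) was 1 or more in size. By this rule 18 genes (0.0829% of those tested) were higher and 17 (0.0783%) were lower in *pep1-1*, and 42 genes (0.193%) passed on adjusted p alone. At an unadjusted p under 0.05, 610 genes (2.81%) were higher and 772 (3.56%) lower. The counts of gene lists at this threshold are to be read beside these shares. The median log2FC over all tested genes was -0.0025. For each of the 35 called genes the libraries of the genotypes did not overlap, which was so for 10.9% of all tested genes. Calls and small p-values rest on these same libraries, so a lack of overlap adds no separate support to either. In size, the log2FC of 296 tested genes reached 1. No called gene overlapped the span of another gene in the table. Genes without an Arabidopsis ortholog made up 23.7% of the tested genes and 20 of the 35 calls, and 0.389% of them were called against 0.0905% of the genes with an ortholog. With the replicate letter as a block, 27 genes (0.124%) were called higher and 30 (0.138%) lower, and each of the 35 calls was kept. With only the 6 libraries of the wild type and *pep1-1* in the fit, 14 genes were called higher and 9 lower of 21410 tested. A block fit of those 6 libraries, chosen after seeing the data, called 33 higher and 50 lower. The Wald test of DESeq2 called 32 higher and 38 lower.

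**Figure D1:**
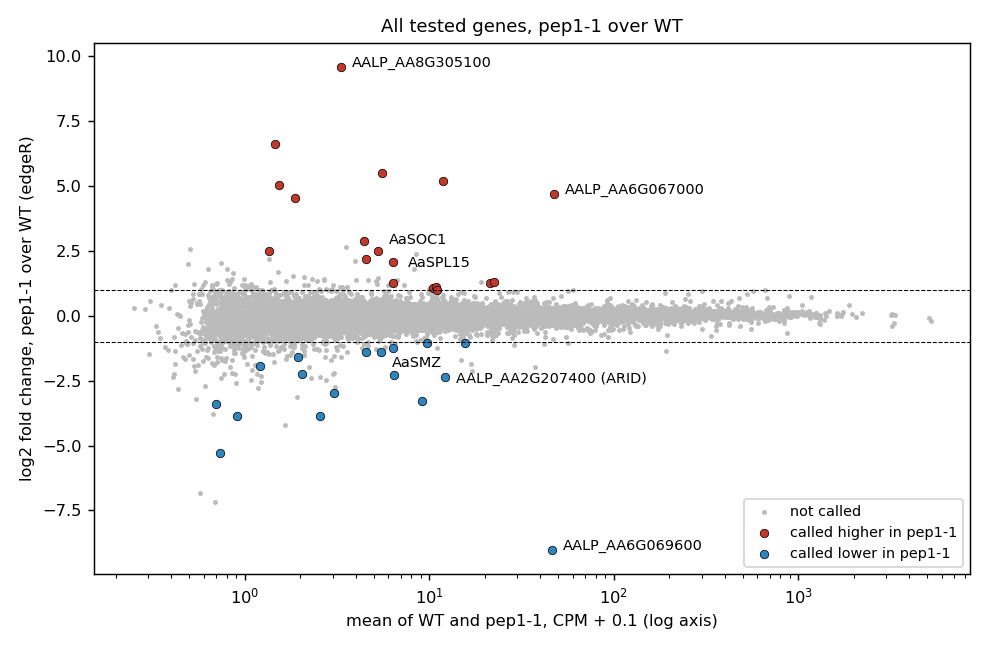
Log2FC of *pep1-1* against the wild type (vertical axis, from edgeR) against the mean level of both genotypes in CPM with 0.1 added (horizontal log axis), 1 point per tested gene, with dashed lines at log2FC of -1 and 1. The 18 genes called higher (red) and the 17 called lower (blue) stand out from the grey cloud of genes that were not called, and several named genes such as *AaSOC1* and *AaSPL15* have low mean levels.

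Of the floral activators, *AaSOC1* and *AaSPL15* rose in *pep1-1*. *AaSOC1* (AALP_AA4G246000, chromosome 4, 21868516 to 21871077), which encodes a MADS box protein that joins signals of several flowering pathways, was at 1.6, 1.51 and 1.55 CPM in wild-type apices and 8.94, 8.08 and 9.37 in *pep1-1*. In *pep2-1* it was at 6.0, 6.41 and 5.04 CPM. All *pep1-1* libraries thus lay far above those of the wild type, with a spread between replicates that was small beside the difference, and the log2FC was 2.5 (SE 0.156, edgeR adjusted p = 0.000111). *AaSPL15* (AALP_AA5G233200, chromosome 5, 19154646 to 19156210), a squamosa promoter binding protein gene that is a target of the microRNA miR156 and promotes flowering at the meristem in Arabidopsis, was at 2.04, 2.54 and 2.53 CPM in wild-type apices, 11.3, 10.9 and 8.36 in *pep1-1* and 4.68, 2.86 and 2.52 in *pep2-1*. Each *pep1-1* library was above every wild-type one, at a log2FC of 2.09 (SE 0.236, edgeR adjusted p = 0.00671). The call of *AaSOC1* was kept with any library left out, and that of *AaSPL15* was lost without wild-type replicate B (edgeR adjusted p = 0.0530).

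Other genes of the activator list did not pass the test. *CO* (AALP_AA8G165800), the photoperiod gene that activates *FT*, was at 4.08, 4.38 and 3.65 CPM in wild-type apices and 6.23, 6.35 and 4.69 in *pep1-1*. Its libraries did not overlap, but its log2FC of 0.51 did not pass (SE 0.162, edgeR adjusted p = 0.554). *AaAGL19* (AALP_AA3G221600), a MADS box activator of flowering after cold in Arabidopsis, was at 6.85, 7.66 and 8.64 CPM and 10.1, 9.67 and 9.37 CPM (log2FC 0.33, SE 0.121, edgeR adjusted p = 0.655). *FD* (AALP_AA7G233800), the bZIP partner of FT at the apex, had overlapping libraries, at 3.94, 2.82 and 3.16 CPM in wild-type apices and 3.66, 4.91 and 3.44 in *pep1-1*. *FT* had at most 2 reads in any of the 6 libraries and was not tested. In all, 6 of the 14 listed activators were tested, with a median log2FC of 0.31. At an unadjusted p under 0.05, 3 of them were higher and none lower, where 2.81% and 3.56% of all genes were. The number higher stayed 3 with the replicate block (all genes 4.08%). It was 2 without wild-type or *pep1-1* replicate A (all genes 3.8% and 3.69%) and 1 without replicate A of the 3 genotypes (all genes 5.52%). Of the 7 listed FLC targets of Arabidopsis 5 were tested, and 2 of these, *AaSOC1* and *AaSPL15*, were higher, with a median of 0.29. Of the 8 tested SPL genes targeted by miR156 *AaSPL15* alone had an unadjusted p under 0.05, and the median of the list was 0.07. *SPL9* (AALP_AA4G211000), which acts with *SPL15* in Arabidopsis, was at 17.64, 13.3 and 14.3 CPM in wild-type apices and 18, 16.7 and 14.2 in *pep1-1*. *FRI*, *VIN3*, Polycomb and autonomous pathway genes, which set the level of *FLC* in Arabidopsis, gave no difference that passed. None of the 30 tested had an unadjusted p under 0.05, and their log2FC lay between -0.15 and 0.23 (median 0.02).

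**Figure D2:**
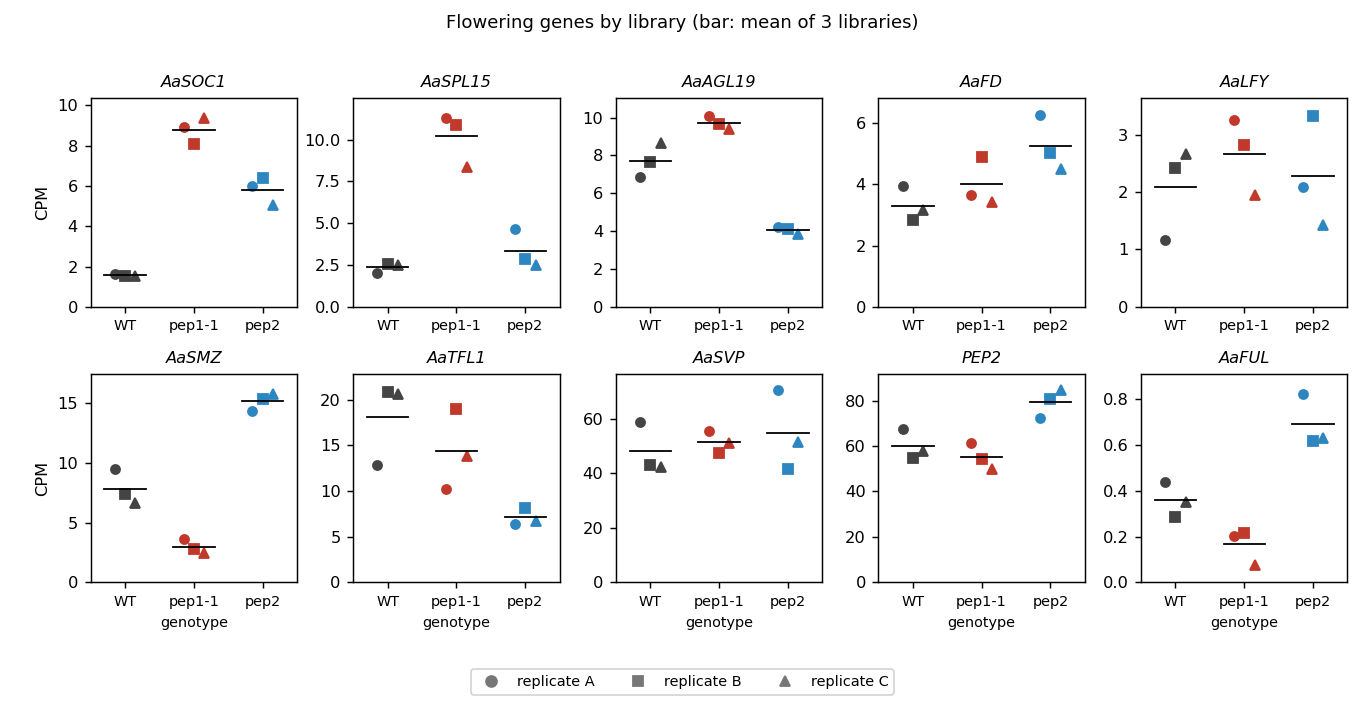
Levels in CPM (vertical axes, each from 0) of 10 flowering genes by genotype (horizontal axes), 1 point per library with the replicate letter given by its shape and a bar at the mean of 3 libraries. *AaSOC1* and *AaSPL15* lie above and *AaSMZ* below the wild type in *pep1-1* without overlap, *AaAGL19* and *AaFUL* do not overlap and were not called, and the libraries of *AaFD*, *AaLFY*, *AaTFL1*, *AaSVP* and *PEP2* overlap.

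Among the floral repressors *AaSMZ* fell. *AaSMZ* (AALP_AA5G187300, chromosome 5, 15903599 to 15906490), an AP2-like gene whose Arabidopsis ortholog is a target of miR172 and represses *FT*, was at 9.48, 7.41 and 6.60 CPM in wild-type apices, 3.59, 2.81 and 2.42 in *pep1-1* and 14.3, 15.3 and 15.8 in *pep2-1*. Within each letter the *pep1-1* library was lower by nearly the same factor (log2 ratios of -1.40, -1.40 and -1.45), and the fitted log2FC was -1.40 (SE 0.182, edgeR adjusted p = 0.0155). Its call was lost without wild-type B, *pep1-1* B or *pep1-1* C (0.0731 to 0.0869) and with only the 6 libraries in the fit (edgeR adjusted p = 0.0897). *TOE3* (AALP_AA8G511400), of the same AP2-like family, was at 2.70, 2.09 and 2.25 CPM in wild-type apices and 3.86, 2.81 and 4.14 in *pep1-1*, without overlap, and did not pass (log2FC 0.63, SE 0.197, edgeR adjusted p = 0.536). *AaTFL1* (AALP_AA8G031100), which delays the floral fate of the meristem, was at 12.8, 20.8 and 20.7 CPM and 10.2, 19.1 and 13.8 CPM, and its libraries overlapped. *AaSVP* (AALP_AA6G290200), a MADS box partner of FLC in Arabidopsis, lay at 58.8, 43.1 and 42.2 CPM in wild-type apices and 55.6, 47.6 and 51.2 in *pep1-1*, also with overlap. *AGL24* was not analysed here. *PEP2* (AALP_AA7G245300), the *AP2* ortholog, had a log2FC of -0.12 with overlapping libraries (edgeR adjusted p = 0.966). Over the 13 repressors tested, 1 was higher and 1 lower at an unadjusted p under 0.05, and the median log2FC was -0.12.

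In the list of floral meristem and organ identity genes the only called member was a gene known from the ovule, and no other was called. The *VERDANDI* ortholog (AALP_AA8G193800, chromosome 8, 13428393 to 13430047), a gene of the REM family with a B3 DNA-binding domain that is needed in the ovule in Arabidopsis, was at 7.07, 7.0 and 6.25 CPM in wild-type apices, 17.1, 11.7 and 13.4 in *pep1-1* and 3.92, 4.71 and 5.44 in *pep2-1*. Its log2FC was 1.05 (SE 0.166, edgeR adjusted p = 0.0459), and the call was lost with any of the 9 libraries left out (edgeR adjusted p of 0.0505 to 0.269). It was also lost with only the 6 libraries of the comparison (edgeR adjusted p = 0.0897) and without replicate A of the 3 genotypes (log2FC 0.92, adjusted p = 0.0517 from edgeR). *AaLFY* (AALP_AA8G450600), which starts the floral meristem, was at 1.17, 2.42 and 2.67 CPM in wild-type apices and 3.25, 2.81 and 1.95 in *pep1-1*. These libraries overlapped, and the log2FC of 0.35 (edgeR adjusted p = 0.983) became -0.074 without replicate A of the 3 genotypes. *AaFUL* (AALP_AA8G438300), a MADS box gene of the inflorescence, had too few reads to enter the fit, at 0.437, 0.287 and 0.351 CPM in wild-type apices and 0.203, 0.216 and 0.0781 in *pep1-1*. An exact two-sided permutation test of its 3 against 3 libraries gave p = 0.1, the smallest that this design allows. The petal and stamen gene *AP3* (AALP_AA5G175900) lay at 0.948, 1.27 and 0.983 CPM in wild-type apices and 0.677, 0.433 and 0.703 in *pep1-1*, without overlap (log2FC -0.84, SE 0.335, edgeR adjusted p = 0.731). Of the 21 genes of this list 9 were tested, with a median of 0.14. At an unadjusted p under 0.05, 1 was higher, the *VERDANDI* ortholog, and 1 lower, *AP3*.

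Called genes for proteins of transcription and chromatin moved in both directions. AALP_AA2G207400 (chromosome 2, 25129263 to 25133247), which encodes a protein with an ARID/BRIGHT DNA-binding domain, was at 18.5, 21.5 and 20.9 CPM in wild-type apices, 3.59, 4.40 and 3.75 in *pep1-1* and 19.6, 17.7 and 16.8 in *pep2-1*. It was lower in each *pep1-1* library (log2FC -2.37, SE 0.121, edgeR adjusted p = 3.18e-05) and was called under every alternative tried. The *ASL9* ortholog (AALP_AA1G184000, chromosome 1, 11970987 to 11972567), a LOB domain gene that responds to cytokinin in Arabidopsis, was at 14.4, 12.7 and 11.8 CPM in wild-type apices, 7.51, 6.57 and 4.61 in *pep1-1* and 12.8, 13.5 and 13.9 in *pep2-1*. It fell, with a log2FC of -1.05 (SE 0.163, edgeR adjusted p = 0.0430), with no overlap of the genotypes. AALP_AA8G380200 (chromosome 8, 32389675 to 32391740), described as a homeodomain-like transcriptional regulator, went the other way, from 8.38, 6.75 and 5.34 CPM in wild-type apices to 16.5, 13.3 and 14.1 in *pep1-1*, beside 15.73, 13.8 and 15 in *pep2-1*. Its log2FC was 1.1 (SE 0.158, edgeR adjusted p = 0.0264). The calls of the last 2 genes were lost with most single libraries left out. The *ASL9* ortholog was not called with any library except *pep1-1* A left out (0.0706 to 0.166) or with only the 6 libraries (0.162). AALP_AA8G380200 was not called with any library except wild-type A or *pep2-1* A left out (0.0540 to 0.164) or with only the 6 libraries (0.107). Values in brackets here are edgeR adjusted p.

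Of the genes that maintain the shoot meristem and set organ boundaries, the *ASL9* ortholog alone was called. Of the 21 tested members of this list, 1 was higher and 3 lower (*ASL9* included) at an unadjusted p under 0.05, and the median log2FC was -0.04. The number lower was 6 with the replicate block, where 5.17% of all genes were, and 1 without *pep1-1* replicate C, beside 3.13% of all genes. *CUC1* (AALP_AA3G170200), a NAC gene of organ boundaries, was at 4.01, 3.93 and 3.79 CPM in wild-type apices and 5.28, 6.78 and 5.62 in *pep1-1* (log2FC 0.59, SE 0.174, edgeR adjusted p = 0.497). *LOB* (AALP_AA8G156400), also of boundaries, was at 4.52, 5.04 and 5.13 CPM and 3.86, 3.68 and 3.05 CPM (-0.47, edgeR adjusted p = 0.636). For both the libraries of the genotypes did not overlap, and neither passed the test over all genes. *BRC2* (AALP_AA2G113700) is a TCP gene that restrains the growth of axillary buds in Arabidopsis. It was at 2.99, 3.44 and 4.21 CPM in wild-type apices and 2.91, 1.88 and 2.27 in *pep1-1*. Its log2FC of -0.59 did not pass (SE 0.232, edgeR adjusted p = 0.722). The log2 ratios within letters A, B and C were -0.04, -0.87 and -0.90, each from a pair of libraries.

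Several called genes with an ortholog belong to metabolism, transport and protein turnover. AALP_AA7G205800 (chromosome 7, 23715173 to 23719252), the ortholog of the Arabidopsis fatty acyl-CoA reductase gene *CER4*, which makes the primary alcohols of cuticular wax, was at 11.7, 12.5 and 13.6 CPM in wild-type apices, 32.4, 24.8 and 33 in *pep1-1* and 20.0, 34.5 and 29.6 in *pep2-1*. It rose by a log2FC of 1.25 (SE 0.190, edgeR adjusted p = 0.0393). The transporter gene AALP_AA2G109200 (chromosome 2, 16771929 to 16775773), of the major facilitator superfamily, was at 3.79, 3.11 and 4.28 CPM in wild-type apices, 8.66, 8.15 and 9.53 in *pep1-1* and 5.69, 4.95 and 3.94 in *pep2-1* (log2FC 1.25, SE 0.176, edgeR adjusted p = 0.0243). Each *pep1-1* library was about as far above the wild-type library of its letter, with log2 ratios of 1.19, 1.39 and 1.15. AALP_AA4G035800 (chromosome 4, 3283513 to 3284777), which encodes a small heat shock chaperone of the HSP20 type, was at 0.365, 0.246 and 0.562 CPM in wild-type apices, 2.44, 1.66 and 2.27 in *pep1-1* and 1.07, 0.773 and 0.631 in *pep2-1*. It was higher in *pep1-1* by a log2FC of 2.49 (SE 0.356, edgeR adjusted p = 0.0264), from few reads in the wild type. The cysteine proteinase gene AALP_AA7G223800 (chromosome 7, 25063157 to 25066630) was nearly silent in the wild type, with 1 read over the 3 libraries against 112 in *pep1-1*. Scaled by library size this is a ratio of 142, with an exact 95% interval of counting error from 24.9 to 5642. Its *pep1-1* libraries were at 3.66, 1.30 and 3.12 CPM and it had at most 1 read in any *pep2-1* library (edgeR adjusted p = 0.0104).

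Fits with single libraries left out, named by genotype and letter, lost the calls of these 4 genes. AALP_AA7G205800 was not called with any library except *pep2-1* A or *pep2-1* B left out (0.0574 to 0.195) or in limma-voom (0.0581). AALP_AA2G109200 was not called with any library except *pep2-1* A or *pep2-1* C left out (0.0540 to 0.145) or with only the 6 libraries (0.0540). AALP_AA4G035800 was not called with any library except *pep2-1* A left out (0.0518 to 0.166), with only the 6 libraries (0.0843) or without replicate A of the 3 genotypes (0.0945), and AALP_AA7G223800 was not called without wild-type B, wild-type C or *pep1-1* C (0.0538 to 0.0905). Values in brackets are adjusted p from edgeR, or limma where named.

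Of the called genes that fell, AALP_AA6G069600 (chromosome 6, 4663823 to 4665349), whose ortholog has no known function, was the most abundant in the wild type. It was at 89.1, 89.2 and 98.3 CPM there, at 0.135, 0.144 and 0.234 in *pep1-1* and at 35.4, 8.58 and 77.2 in *pep2-1*, where the libraries differed among themselves by more than in the other genotypes. The transcript was close to absent from each *pep1-1* library, and the log2FC was -9.02 (SE 0.984, edgeR adjusted p = 0.00532). It was not called without *pep1-1* B or *pep1-1* C (0.0538 to 0.0557) or in limma-voom (adjusted p = 0.514). AALP_AA3G364500 (chromosome 3, 27222733 to 27225091), whose description names a putative endonuclease or glycosyl hydrolase, was at 4.96, 4.26 and 4.57 CPM in wild-type apices, 0.609, 0.216 and 0.0781 in *pep1-1* and 0.190, 0.0773 and 0.631 in *pep2-1*. It fell, with a log2FC of -3.84 (SE 0.509, edgeR adjusted p = 0.0169), with all libraries of both mutants below those of the wild type. AALP_AA3G342000 (chromosome 3, 25520770 to 25522446), which encodes a P-loop nucleoside triphosphate hydrolase, was at 18, 24.9 and 19.3 CPM in wild-type apices, 12.2, 9.24 and 8.98 in *pep1-1* and 15.9, 14.2 and 15 in *pep2-1*. Its difference was smaller in replicate A (log2 ratios within letters of -0.56, -1.43 and -1.1), and the log2FC was -1.04 (SE 0.154, edgeR adjusted p = 0.0341). AALP_AA8G428400 (chromosome 8, 35672933 to 35676557), an ACT-like gene of a family with amino acid binding domains, was at 1.68, 1.84 and 1.76 CPM in wild-type apices, 0.542, 0.433 and 0.391 in *pep1-1* and 0.316, 0.386 and 0.158 in *pep2-1* (log2FC -1.93, SE 0.297, edgeR adjusted p = 0.0430).

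These calls too were lost in fits with single libraries left out. AALP_AA3G364500 was not called without wild-type A, wild-type B, wild-type C, *pep1-1* B or *pep1-1* C (0.0523 to 0.102), and AALP_AA3G342000 not with any library except wild-type A or *pep1-1* A left out (0.0592 to 0.185) or with only the 6 libraries (0.134). AALP_AA8G428400 lost its call with any of the 9 libraries left out (0.0518 to 0.216), with only the 6 libraries (0.0843), without a filter on low counts (0.0624), in limma-voom (0.0530) and without replicate A of the 3 genotypes (0.115). All are adjusted p from edgeR apart from that of limma-voom.

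**Figure D3:**
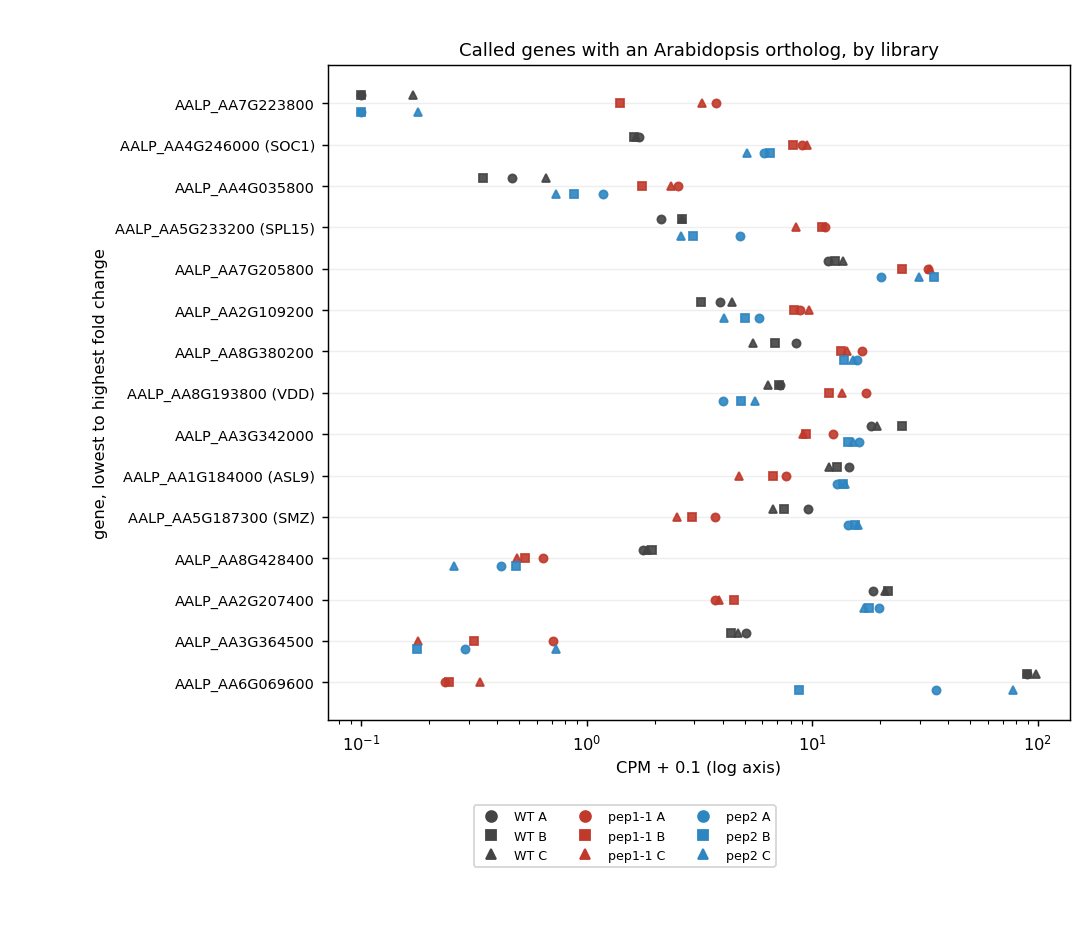
Levels of the 15 called genes that have an Arabidopsis ortholog in CPM with 0.1 added (horizontal log axis), 1 row per gene ordered by fold change (vertical axis), 1 point per library, with color for the genotype and shape for the replicate letter. For every gene the points of *pep1-1* (red) lie to 1 side of those of the wild type (dark grey), farthest for AALP_AA6G069600 and AALP_AA7G223800.

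Of the called genes without an Arabidopsis ortholog, 10 rose and 10 fell. Names given here for them come from the study's own annotation and were not checked. AALP_AA6G067000 (chromosome 6, 4451778 to 4453731), without a name, was at 4.23, 3.93 and 2.25 CPM in wild-type apices, 71.3, 100.2 and 103 in *pep1-1* and 1.07, 1.31 and 1.18 in *pep2-1*. It had the smallest adjusted p of all genes, with a log2FC of 4.70 (SE 0.215, edgeR adjusted p = 2.13e-05). AALP_AAs47458U000100, on a scaffold not placed on a chromosome and named for a UBA/TS-N domain that binds ubiquitin, was at 0.583, 0.655 and 0.562 CPM in wild-type apices, 16.6, 26.3 and 25.5 in *pep1-1* and 0.253, 0.309 and 0.867 in *pep2-1* (log2FC 5.21, SE 0.309, edgeR adjusted p = 8.89e-05). The unnamed gene AALP_AA2G088600 (chromosome 2, 13291923 to 13295840) was at 0.219, 0.246 and 0.211 CPM in wild-type apices and 13.6, 10.3 and 7.89 in *pep1-1*, and had no read in *pep2-1* (log2FC 5.49, SE 0.327, edgeR adjusted p = 0.000635). For these 3 genes each wild-type library was low but had reads. AALP_AA8G305100 (chromosome 8, 26108783 to 26109667), of a hypothetical protein, had no read in the wild type, 3.32, 8.59 and 7.42 CPM in *pep1-1* and 1.33, 2.16 and 0.473 CPM in *pep2-1*. Against a floor of 3 reads over the wild-type libraries, its 263 reads in *pep1-1* make it at least 111-fold higher (edgeR adjusted p = 0.0178), where the floor covers counting error only.

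Another 4 genes of this kind rose from low but measurable levels. AALP_AA3G324800 (chromosome 3, 24180705 to 24183280), named for the purple acid phosphatase PAP10, a secreted enzyme that releases phosphate, was at 1.02, 1.35 and 0.632 CPM in wild-type apices, 6.84, 8.23 and 7.81 in *pep1-1* and 0.695, 0.773 and 1.66 in *pep2-1* (log2FC 2.87, SE 0.312, edgeR adjusted p = 0.00532). The gene next to it in the numbering, AALP_AA3G324700, carries the *PAP10* ortholog in the table, was at 29.8, 23.8 and 20.4 CPM in wild-type apices and 28.5, 23.5 and 18.3 in *pep1-1*, and had a log2FC of -0.07. If reads were split between such similar copies, their levels are less certain than those of other genes. AALP_AA5G229000 (chromosome 5, 18813647 to 18815578), with a TRAF-like domain, was at 1.31, 2.01 and 1.33 CPM in wild-type apices, 6.36, 7.29 and 8.28 in *pep1-1* and 4.42, 4.48 and 4.41 in *pep2-1* (log2FC 2.19, SE 0.198, edgeR adjusted p = 0.00180). AALP_AA8G189200 (chromosome 8, 12893349 to 12894593), unnamed, was at 13.3, 13.6 and 11.7 CPM, 28.2, 32.0 and 34.4 CPM and 25.7, 31.7 and 32.0 CPM in the same order of genotypes, so that both mutants lay above the wild type (1.29 in *pep1-1*, edgeR adjusted p = 0.00190). AALP_AAs50048U000100, unplaced and unnamed, was at 7.51, 6.80 and 7.45 CPM in wild-type apices and 12.9, 14.2 and 16.8 in *pep1-1*. Its log2FC of 1.01 (SE 0.122, edgeR adjusted p = 0.00983) was just over the threshold, and it fell below it with library size alone as the scaling (0.99).

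Those that fell include a pair of neighbours. AALP_AA1G152400 (chromosome 1, 9314150 to 9315073), named as a nuclease derived from a harbinger transposase, was at 21.6, 12.0 and 15.73 CPM in wild-type apices, 1.56, 1.73 and 1.80 in *pep1-1* and 8.97, 11.5 and 6.78 in *pep2-1* (log2FC -3.26, SE 0.281, edgeR adjusted p = 0.00132). AALP_AA1G152500 (chromosome 1, 9315797 to 9318741), named purple acid phosphatase 1, begins 0.724 kb after its end and was at 12.1, 9.21 and 10.1 CPM, 2.5, 1.80 and 2.11 CPM and 3.29, 4.56 and 2.21 CPM (-2.28, edgeR adjusted p = 0.00532). For both, all *pep1-1* libraries lay below the lowest wild-type one. AALP_AA3G284000 (chromosome 3, 20279316 to 20281330), unnamed, was at 4.74, 5.08 and 5.97 CPM in wild-type apices, 0.338, 0.866 and 0.781 in *pep1-1* and 0.758, 0.541 and 0.867 in *pep2-1* (-2.99, SE 0.297, edgeR adjusted p = 0.00310). AALP_AA7G112400 (chromosome 7, 12059037 to 12065211), named for diacylglycerol kinase 3, an enzyme of lipid signalling, was at 6.63, 6.02 and 6.53 CPM, 2.57, 2.45 and 2.27 CPM and 4.99, 5.80 and 5.36 CPM (-1.39, SE 0.144, edgeR adjusted p = 0.00434). AALP_AA3G000100 (chromosome 3, 16440 to 17641), named for the floral MADS box gene *SEP2*, was at 7.36, 10.2 and 8.92 CPM in wild-type apices, 3.66, 4.19 and 3.44 in *pep1-1* and 7.64, 7.50 and 7.17 in *pep2-1*. This gene, whose *SEP2* name was not checked, thus had reads in wild-type apices and was lower in *pep1-1* (-1.24, SE 0.154, edgeR adjusted p = 0.0116). *SEP1* and *SEP3* of the floral list stayed under 0.5 CPM in all 6 libraries, and *SEP2* and *SEP4* of that list are not given here.

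The remaining 7 called genes without an ortholog have a mean below 5 CPM in both genotypes. AALP_AA6G287100, named as a serine carboxypeptidase-like protein (SCPL12), and the unnamed AALP_AAs50665U001000 rose to between 2.37 and 3.90 CPM from at most 0.281 in the wild type, with log2FC of 4.55 and 5.03 (edgeR adjusted p = 0.00310 and 0.000635). The 5 others fell from between 0.773 and 3.64 CPM to at most 0.948. They were AALP_AA1G185200, named for an alpha-helical ferredoxin (-2.24), AALP_AA8G233200, of the cystatin/monellin type (-1.59), and the unnamed AALP_AA5G185200 (-3.86) and AALP_AA4G266600 (-3.41), with edgeR adjusted p of 0.0155, 0.0175, 0.0116 and 0.0453. AALP_AAs55428U000200 fell from 69 reads over the wild-type libraries to 1 over those of *pep1-1*, a ratio of 54.6 with an exact 95% interval of counting error from 9.48 to 2186.

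Of these 20 genes, 12 kept their calls under each alternative: AALP_AA1G152400, AALP_AA1G152500, AALP_AA2G088600, AALP_AA3G284000, AALP_AA3G324800, AALP_AA5G229000, AALP_AA6G067000, AALP_AA6G287100, AALP_AA7G112400, AALP_AA8G189200, AALP_AAs47458U000100 and AALP_AAs50665U001000. AALP_AA8G305100 was not called without wild-type B, wild-type C, *pep1-1* B or *pep1-1* C (0.0588 to 0.0870), AALP_AA3G000100 not without wild-type B, wild-type C, *pep1-1* A or *pep1-1* C (0.0551 to 0.0761) and AALP_AAs50048U000100 not without wild-type B, wild-type C, *pep1-1* B or *pep1-1* C (0.0424 to 0.0809). AALP_AA1G185200 was not called without wild-type A, wild-type B, *pep1-1* A, *pep1-1* B or *pep1-1* C (0.0527 to 0.0905), AALP_AA5G185200 not without wild-type B, wild-type C, *pep1-1* A, *pep1-1* B or *pep1-1* C (0.0538 to 0.0834) and AALP_AAs55428U000200 not without wild-type B, *pep1-1* B or *pep1-1* C (0.0530 to 0.0641). AALP_AA4G266600 lost its call with any library except *pep2-1* A left out (0.0761 to 0.228) and AALP_AA8G233200 with any library except *pep2-1* A, *pep2-1* B or *pep2-1* C left out (0.0706 to 0.102). With only the 6 libraries AALP_AA3G000100, AALP_AA4G266600, AALP_AA8G233200, AALP_AAs50048U000100 and AALP_AAs55428U000200 were not called (0.0528 to 0.0828), and without replicate A of the 3 genotypes AALP_AA1G185200, AALP_AA4G266600, AALP_AA5G185200 and AALP_AA8G233200 were not (0.0517 to 0.117). AALP_AA4G266600 also lost its call without a filter (0.0545) and in limma-voom (0.0625). Values in brackets are adjusted p from edgeR or, where named, limma, and the lowest of AALP_AAs50048U000100 is from a fit in which its log2FC was under 1.

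**Figure D4:**
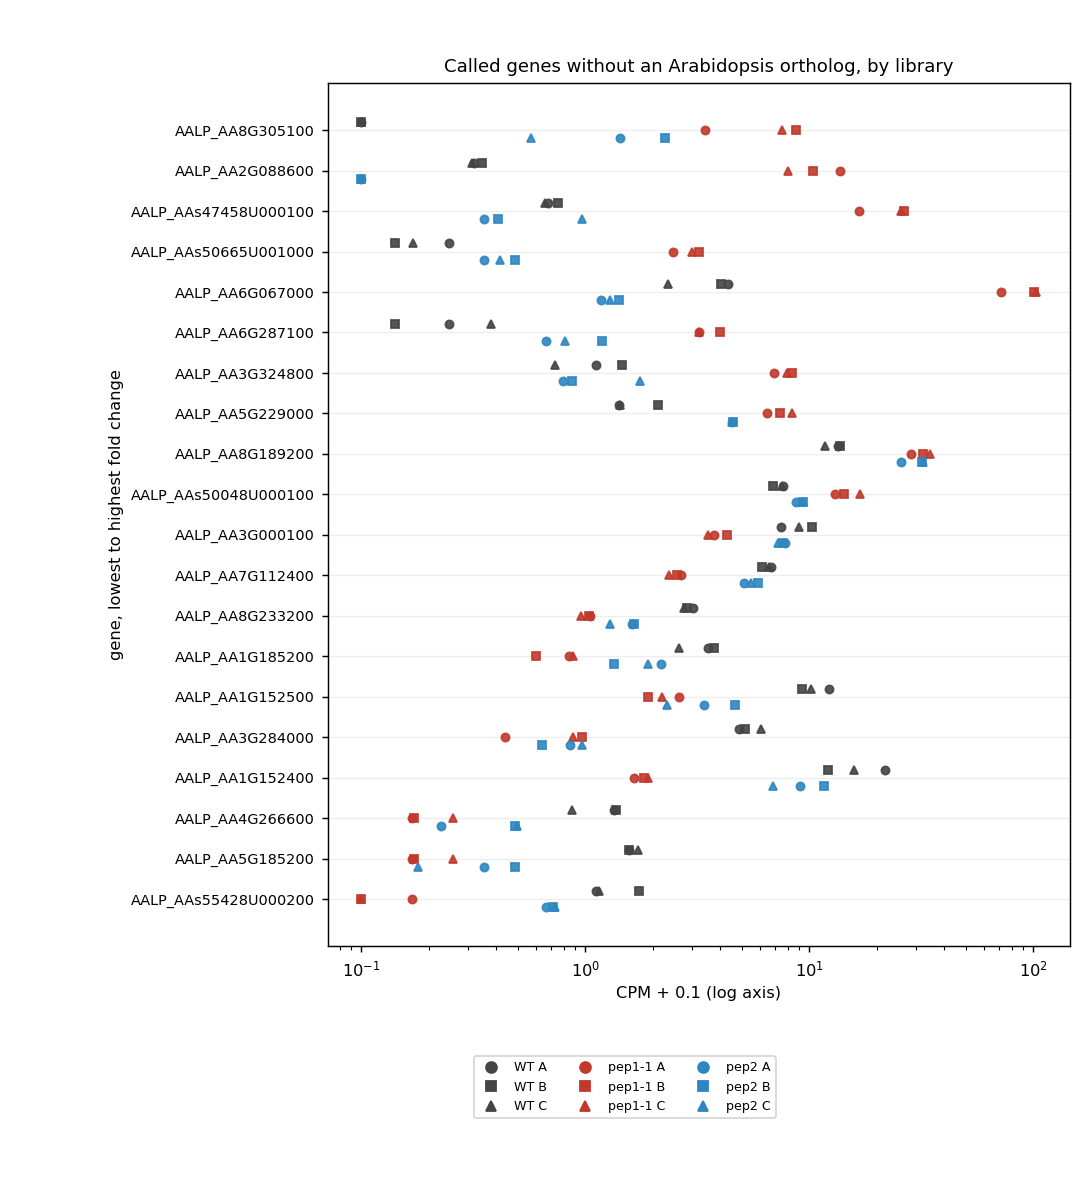
Levels of the 20 called genes without an Arabidopsis ortholog in CPM with 0.1 added (horizontal log axis), 1 row per gene ordered by fold change (vertical axis), 1 point per library, with color for the genotype and shape for the replicate letter. The *pep1-1* libraries (red) of AALP_AA6G067000 lie between 71.3 and 103 CPM, far above the other genotypes, while those of AALP_AA8G189200 lie beside those of *pep2-1* (blue).

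Called genes lay on all 8 chromosomes, with 3 to 6 on each, and 4 were on unplaced scaffolds. Per chromosome the called genes were between 0.117% and 0.184% of those tested, and 0.242% on the unplaced scaffolds. Some were close together: 10 of the 31 placed ones (32.3%) lay within 500 kb of another called gene, where 2350 of the 20028 placed genes that were tested and not called (11.7%) lay as near to a called one. Beside the pair AALP_AA1G152400 and AALP_AA1G152500, these were the *ASL9* ortholog AALP_AA1G184000 and AALP_AA1G185200 at 60.7 kb, AALP_AA5G185200 and *AaSMZ* at 159 kb, AALP_AA6G067000 and AALP_AA6G069600 at 210.1 kb, and AALP_AA5G229000 and *AaSPL15* at 339 kb. In 4 of the 5 pairs both genes moved the same way, and AALP_AA6G067000 rose where AALP_AA6G069600 fell.

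Hormone genes showed single differences that did not pass the test over all genes. Of 24 gibberellin genes 3 were higher and 1 lower at an unadjusted p under 0.05 (median log2FC 0.07), where 2.81% and 3.56% of all genes were. The number higher was 4 with the replicate block (all genes 4.08%) and 1 without *pep1-1* replicate C (all genes 2.24%). *GA2OX2* (AALP_AA1G307900), an enzyme that inactivates gibberellin, was at 8.38, 12.0 and 9.76 CPM in wild-type apices and 17.9, 17.5 and 19.8 in *pep1-1*, and *GA2OX4* (AALP_AA4G080200), of the same family, at 3.79, 3.73 and 2.53 CPM and 1.62, 1.73 and 0.703 CPM. The libraries of the genotypes did not overlap for either, and they differed in opposite directions (0.86 and -1.30, edgeR adjusted p = 0.231 and 0.304). The DELLA genes *RGA* (AALP_AA5G005600) and *RGL3* (AALP_AA8G186200), repressors of gibberellin responses, had log2FC of 0.17 and 0.43 (edgeR adjusted p = 0.781 and 0.727). Of 22 cytokinin genes 3 were lower and none higher (median -0.07). *ARR7* (AALP_AA1G208700), a response regulator that cytokinin induces and that dampens its signal, was at 29.8, 30.6 and 33.5 CPM in wild-type apices and 25.2, 22.6 and 20.6 in *pep1-1* (-0.46, edgeR adjusted p = 0.256). *ARR8* (AALP_AA4G197100) and the cytokinin oxidase gene *CKX5* (AALP_AA2G196900) were at -0.66 and -0.41 on the same scale (edgeR adjusted p = 0.678 and 0.693). With the replicate block 7 of the 22 cytokinin genes were lower at an unadjusted p under 0.05 (all genes 5.17%), and without *pep1-1* replicate C 1 was (all genes 3.13%). None of 19 auxin genes had an unadjusted p under 0.05 (median 0.06). Of 13 jasmonate genes 1 was higher, *JAZ1* (AALP_AA1G210400, 0.55), and of 14 salicylic acid genes 1 was lower, *ICS1* (AALP_AA2G187900, -0.36), with edgeR adjusted p of 0.726 and 0.774.

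Genes of the clock and of responses to the environment gave no call. Of 26 clock genes 1 was higher at an unadjusted p under 0.05, *CDF5* (AALP_AA2G122900), a repressor of *CO*, at 7.95, 4.87 and 5.69 CPM in wild-type apices and 10.9, 7.0 and 8.67 in *pep1-1* with overlap (0.54, edgeR adjusted p = 0.756). The morning gene *LHY* (AALP_AA1G000800) was at 4.67, 32.8 and 18.3 CPM in wild-type apices and 3.45, 22.7 and 10.9 in *pep1-1*, lowest in replicate A of both genotypes. No member had an unadjusted p under 0.05 among 8 cold and drought genes, 5 heat shock genes, 15 phosphate starvation genes and 26 genes of cell division, whose medians lay between -0.01 and 0.04. The same holds for 8 trichome genes (median 0.01) and for 16 vascular genes (median -0.08) over all libraries. Single libraries moved the vascular genes: 6 were lower without *pep1-1* replicate A (median -0.33, all genes 4.87% lower), 5 were lower without replicate A of the 3 genotypes (all genes 5.11%), and 3 were higher without *pep1-1* replicate C (all genes 2.24%). Of 8 stomatal genes 1 was higher, *SDD1* (AALP_AA1G035200, a subtilase, 0.55, edgeR adjusted p = 0.770), and the median was 0.27. Of the 7 root genes 2 were tested, with *EXPA18* (AALP_AA2G010800) at 1.46, 1.19 and 1.05 CPM in wild-type apices and 1.83, 1.59 and 1.95 in *pep1-1* (edgeR adjusted p = 0.774), and *EXPA7* had no read in the 6 libraries. Among 10 flavonoid genes *F3'H* (AALP_AA8G075500), a hydroxylase of the pathway, was at 1.53, 1.43 and 1.83 CPM in wild-type apices and 2.98, 3.82 and 3.05 in *pep1-1* without overlap (1.05, edgeR adjusted p = 0.523), and the median was -0.13.

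Photosynthesis genes leaned to higher levels in *pep1-1*, and this difference moved with single libraries. Photosystem and light-harvesting proteins capture light in leaf chloroplasts. Of the 64 tested genes described as such, 12 (18.8%) were higher and none lower at an unadjusted p under 0.05. Over all tested genes 2.81% were higher and 3.56% lower. The median log2FC of the class was 0.17, and none of its genes was called. *LHCB4.1* (AALP_AA8G007900), an antenna protein of photosystem II, was at 807, 787 and 751 CPM in wild-type apices and 821, 883 and 1153 in *pep1-1*. *PSBY* (AALP_AA2G096700) was at 135, 124 and 108 CPM and 142, 140.3 and 174 CPM. *PSBX* (AALP_AA3G302600) and *ATPD* (AALP_AA6G194200, a subunit of the chloroplast ATP synthase) were the other listed genes at an unadjusted p under 0.05, with log2FC of 0.26 and 0.27. In all 4 genes *pep1-1* library C was the highest. For *LHCB4.1* and *PSBY* the log2FC of 0.28 and 0.31 did not pass (edgeR adjusted p = 0.750 and 0.686). The median log2 ratio of the class within letters was -0.04, 0.10 and 0.47 for A, B and C. Without *pep1-1* replicate C, 3 of 65 such genes were higher, where 2.24% of all genes were. Without wild-type replicates A, B or C the number was 22, 5 and 6, where 3.8%, 2.2% and 2% of all genes were higher. Without replicate A of the 3 genotypes it was 30 of 65, where 5.52% of all genes were higher, and with the replicate block it was 19, beside 4.08% of all. The summed level of 35 listed leaf mesophyll genes, which marks leaf tissue in the sample, was 15282, 11882 and 11252 CPM in wild-type apices and 14211, 12490.5 and 16342 in *pep1-1*, and 4 of them were higher (none without *pep1-1* replicate C, 14 without wild-type replicate A and 21 without replicate A of the 3 genotypes). The share of leaf tissue per library was not tested as a source of this difference.

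**Figure D5:**
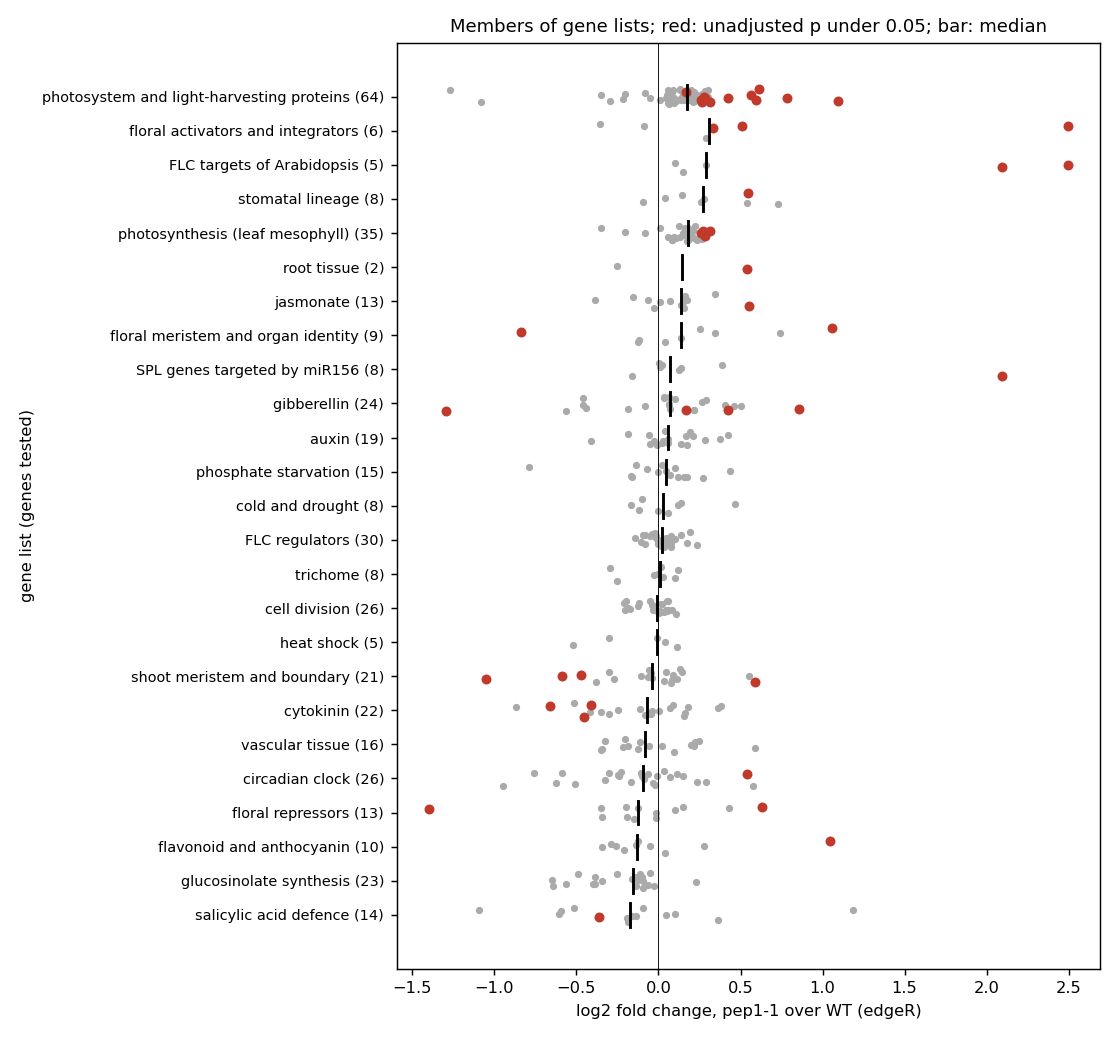
Log2FC of *pep1-1* against the wild type (horizontal axis, from edgeR) for the tested members of the 24 gene lists and the class of photosystem genes (rows on the vertical axis, number tested in brackets), 1 point per gene, red at an unadjusted p under 0.05, with a bar at the median. The largest rises are those of 2 genes that stand in more than 1 row. *AaSOC1* at 2.5 is in the floral activators and the FLC targets, and *AaSPL15* at 2.09 in the FLC targets and the SPL genes. The medians of all rows lie between -0.17 and 0.31.

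Glucosinolate synthesis genes, which make defence compounds of the Brassicaceae, gave differences between the genotypes that changed with the replicate letter. None of the 23 tested had an unadjusted p under 0.05 in the fit over all libraries, though 22 had a negative log2FC (median -0.16). *BCAT4* (AALP_AA3G226500), which starts the elongation of methionine chains, was at 61.0, 35.9 and 32.2 CPM in wild-type apices and 77.6, 3.82 and 9.53 in *pep1-1*. *CYP79F1* (AALP_AA1G181100), of the core pathway, was at 55.5, 19.2 and 20.4 CPM and 60.4, 3.61 and 7.34 CPM. In replicate A *pep1-1* had the higher level of both genes, and in B and C they were several-fold lower. *MYB29* (AALP_AA8G072600), a regulator of the aliphatic branch, followed the same order at 22.9, 17.5 and 16.6 CPM in wild-type apices and 24.2, 7.0 and 4.77 in *pep1-1*. The indolic gene *CYP83B1* (AALP_AA7G096200) did not, at 74.3, 86.8 and 92.2 CPM and 78.5, 92.9 and 66.3 CPM. The median log2 ratio of the list within letters was 0.09, -0.65 and -0.46 for A, B and C. With the replicate block 2 of the 23 were lower (median -0.25, all genes 5.17%), and 8 (median -0.33, all genes 5.56%) in the block fit of only the 6 libraries. Without replicate A of the 3 genotypes 15 of the 23 were lower at an unadjusted p under 0.05 (median -0.62), where 5.11% of all genes were. Without *pep1-1* replicate A alone it was 18 (median -1.05), beside 4.87% of all genes. What sets replicate A apart was not tested.

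Classes of genes set by words in the description of their ortholog gave few further differences. Over all tested genes, 2.81% were higher and 3.56% lower at an unadjusted p under 0.05. Of 251 ribosomal protein genes 13 were higher and 3 lower at an unadjusted p under 0.05 (median 0.03). The number higher was 4 without *pep1-1* replicate C (all genes 2.24%) and 26 without *pep1-1* replicate A (all genes 3.69%). It was 21 without wild-type replicate A (all genes 3.8%) and 41 without replicate A of the 3 genotypes (all genes 5.52%). The smallest p among them was that of AALP_AA5G054100, a gene of the 60S acidic family, at 97.4, 94.1 and 100.1 CPM in wild-type apices, 148, 137 and 144 in *pep1-1* and 282, 295 and 295 in *pep2-1*. It passed on adjusted p and lay under the fold needed for a call (log2FC 0.56, SE 0.0664, edgeR adjusted p = 0.00983). Of 40 lipid transfer protein genes 2 were higher and 6 (15%) lower. The number lower was 12 with the replicate block (all genes 5.17%) and 3 without *pep1-1* replicate C (all genes 3.13%). Among the 6 was AALP_AA7G052100, an abundant one at 3358, 3698 and 3846 CPM in wild-type apices and 3046, 3273 and 2614 in *pep1-1* (-0.29). Of 51 genes of the ERF/AP2 type 1 was higher and 5 (9.8%) lower, *AaSMZ* included, with a median of -0.12. Of 16 MADS box genes 2 were higher, *AaSOC1* and *AaAGL19*, and 2 lower. The 657 protein kinases (17 higher, 19 lower), 320 zinc finger proteins (8 and 8), 419 transporters (15 and 13) and 224 pentatricopeptide proteins (5 and 6) had medians between -0.01 and 0.01. F-box proteins were lower in 8 (6.35%) and higher in 1 of 126 (median -0.06).

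Apart from the ribosomal protein gene, the strongest differences that were not called in genes with an ortholog and at least 5 CPM were these. AALP_AA4G063100, the ortholog of *ABF1*, a bZIP factor of abscisic acid responses, was at 29.2, 28.2 and 28.7 CPM in wild-type apices and 17.8, 19.3 and 17.9 in *pep1-1*, and passed on adjusted p with a log2FC of -0.64 (SE 0.0830, edgeR adjusted p = 0.0151). AALP_AA5G151500, of unknown function, was at 7.0, 7.70 and 8.08 CPM and 13.1, 14.9 and 14.4 CPM (0.89, edgeR adjusted p = 0.0243). AALP_AA8G437300, also unknown, was at 19.0, 17.9 and 19.0 CPM and 12.3, 13.3 and 12.5 CPM (-0.55, edgeR adjusted p = 0.0430). These were past the threshold on p and under that on fold, and their libraries did not overlap. AALP_AA1G129900, the ortholog of the nitrate transporter and sensor *NRT1.1*, was at 8.75, 6.55 and 7.09 CPM in wild-type apices and 12.5, 12.9 and 13.5 in *pep1-1* (0.80, edgeR adjusted p = 0.0894). The methyltransferase gene AALP_AA1G338100 was at 14.4, 10.2 and 8.43 CPM and 28.9, 22.4 and 28.8 CPM, with a log2FC of 1.29 and an adjusted p of 0.0595 from edgeR that became 0.00844 with the replicate block. It was also called with library size as the scaling, without a filter, without replicate A of the 3 genotypes, and by DESeq2 and limma-voom. The others on the higher side were *NADP-ME3* (AALP_AA8G239500, 0.68), a malic enzyme, the glycosyl hydrolase gene *GH9B13* (AALP_AA6G030100, 0.61), a thionin gene (AALP_AA1G023900, 0.88) and AALP_AA2G064300 of unknown function (0.62), with edgeR adjusted p of 0.107, 0.0894, 0.155 and 0.144. On the lower side the most abundant was AALP_AA3G054800, of a pollen coat protein family, at 396, 414 and 464 CPM in wild-type apices and 279.7, 278 and 192 in *pep1-1* (-0.76, edgeR adjusted p = 0.0862). The others there were a copper amine oxidase gene (AALP_AA1G323600), *WRKY57* (AALP_AA6G189600), AALP_AA8G281100, AALP_AA8G190000 and AALP_AA3G128700, with log2FC of -0.62, -0.81, -0.53, -0.60 and -0.70 (edgeR adjusted p of 0.0595 to 0.130).

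The replicate block, which compares *pep1-1* and the wild type within each letter, called 9 further genes higher and 13 lower in the fits of both 9 and 6 libraries, and these were named after their values were seen. AALP_AA4G203000, the ortholog of the cytochrome P450 gene *CYP79C2*, was at 519.5, 155 and 155 CPM in wild-type apices and 219.6, 54.6 and 52.0 in *pep1-1*. It was lower in the mutant within each letter, with a log2FC of -1.42 under the block (edgeR adjusted p = 0.0140, against 0.804 without it). Peroxidase genes AALP_AA8G047500 and AALP_AA4G162800, the MtN21-like transporter gene AALP_AA2G131700 and the beta-glucosidase gene AALP_AA7G045800 were also lower under the block (-1.91, -2.32, -1.83 and -1.33, edgeR adjusted p = 0.0450, 0.0370, 0.0108 and 0.0480). Genes higher under the block included AALP_AA8G166300, the ortholog of *TRICHOME BIREFRINGENCE-LIKE 19* of a family that acetylates cell wall polymers, and AALP_AA8G060300, the ortholog of *NF-YA10*, a subunit of a transcription factor complex (2.52 and 2.24, edgeR adjusted p = 0.0255 and 0.0260). The beta-carotene hydroxylase gene AALP_AA8G303500 and the auxin efflux carrier family gene AALP_AA3G333700 were also higher (1.46 and 1.49, edgeR adjusted p = 0.0119 and 0.0108).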

How the data were processed

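Poly(A) RNA of dissected apices from 9 samples was sequenced as single-end reads. The authors used TopHat to map these to the *A. alpina* genome and CuffDiff to count them, with version, annotation and strand not given in the sources used here. Deposited values taken up are estimated counts, that is, raw reads per gene and library as the file header names them, without normalization by the authors. They were rounded, since 64 genes have fractional reads. Another 18 columns of scaled values per library were not used, nor were the columns of fold changes, p-values and q-values, which hold the authors' own comparisons. CuffDiff could not be rerun from this table, so a count test took its place.

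The filter filterByExpr of edgeR 4.0.16 under R 4.3.3 (count of 10, total of 15, group of 3) left 21713 genes. All libraries entered 1 quasi-likelihood model with TMM scaling, p-values were adjusted by Benjamini and Hochberg's method over all of these genes, and calls needed an adjusted p up to 0.05 and a log2 fold change of 1 or more in size. The SE is the log2 fold change divided by the square root of F. Libraries had 12871903 to 23829973 reads in genes, and no 2 of them were identical. Intervals and floors cover counting error only.

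Named are all called genes, up to 8 uncalled genes per direction with an ortholog, at least 5 CPM and the smallest p, up to 4 genes per list under p of 0.05, and a fixed set of flowering genes. The members, the 24 lists and the 30 classes of descriptions were chosen with earlier results of these data known, and class patterns were corrected after wrong matches were seen. Of 457 listed Arabidopsis genes 417 had a row. The letters were taken to pair wild type and *pep1-1*, since deviations from the genotype means correlated within A, B and C (r = 0.626, 0.385 and 0.319). The largest r of each wild-type library with another *pep1-1* letter was -0.366, 0.240 and 0.190. With *pep2-1*, r within A, B and C was 0.472, 0.388 and 0.014 for the wild type and 0.312, 0.077 and -0.027 for *pep1-1*. For C, the largest r with another *pep2-1* letter was 0.426 and 0.387, so letter C did not pair *pep2-1* with them. The block over all libraries still gives each letter the same effect in all genotypes. The pairing comes from the data and not from the labels, which number replicates. Alternatives were other scalings, no filter, DESeq2 1.42.0, limma 3.58.1 (voom), only the 6 libraries, a replicate block, each library left out, replicate A left out, and adjusted p alone.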

Additional observations from a re-analysis of the deposited data

How the results depend on the processing

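Over 19 alternatives, 14 of the 35 calls were kept in each and 21 were lost in at least 1. No called gene changed direction, which the lack of overlap between the genotypes fixed in advance for fits with libraries left out. The counts of 18 genes called higher and 17 lower became 32 and 38 with the Wald test of DESeq2, and 9 lower with only the 6 libraries in edgeR (14 higher). They became 26 higher and 34 lower without replicate A of the 3 genotypes, and 9 to 17 higher and 5 to 15 lower with single libraries left out. A fit of 2 libraries in a genotype takes the spread from all genotypes. With the replicate block the counts were 27 and 30, and in a block fit of the 6 libraries, chosen after seeing the data, 33 and 50. Both block fits kept the 35 calls and, of the named genes that were not called, called AALP_AA1G338100 alone (edgeR adjusted p = 0.00844 and 0.00346). Other scalings, no filter and limma-voom gave 18 or 19 higher and 16 or 17 lower. The log2 fold change of *AaLFY* (AALP_AA8G450600) turned to -0.074 without replicate A of the 3 genotypes. The causes of these shifts were not tested. With 3 libraries a genotype, genes with few reads in 1 of them rest on counts that single libraries can move, and 21713 of 30690 genes had enough reads to test.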
